A study of Homo sapiens with 12 samples.

Results

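MCF10AT1, a human breast epithelial line transformed with activated HRAS, was compared with MCF10A, the immortalised non-tumorigenic line it derives from. The genes compared were those with a mean of at least 1 TPM (a unit of transcript abundance scaled for gene length and to the same total in each library) in either line, which were 12575 of the 59427 gene symbols listed. RNA sequencing covered 4 lines of the MCF10 progression series, the others being MCF10DCIS, which models ductal carcinoma in situ, and the metastatic MCF10CA1a. Per the labels, 3 libraries of each line were made, from total RNA and by a stranded protocol. Both lines grew in 1 and the same DMEM/F12 medium, with EGF, insulin, hydrocortisone, cholera toxin, horse serum, penicillin, streptomycin and glutamine, so growth factor was present in both. The series names the allele of its HRAS-transformed stage as G12V but does not write the line beside it, and MCF10AT1 was taken to be that stage because the other 3 are named separately. As background, MCF10AT1 was recovered from a mouse xenograft of HRAS-transfected MCF10A cells. With 1 line of each kind, the allele cannot be told apart from anything else that separates the 2 lines.

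HRAS is a small GTPase that passes signals from growth factor receptors to RAF, MEK and the ERK kinases, and activating alleles hold it in its GTP-bound form. ERK signalling induces its own brakes, the DUSP phosphatases and the Sprouty and SPRED proteins, together with transcription factors of the AP-1 and PEA3 families. In epithelial cells, prolonged RAS signalling is also known for its link to the epithelial-mesenchymal transition, in which SNAI, ZEB and TWIST factors repress junction genes and mesenchymal matrix genes are expressed.

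The deposited values are the mean over the libraries of each line. No value therefore has an SD, no difference has a test, and a difference cannot be set against the spread between libraries or traced to 1 library. The depth is unknown. A gene counted as higher or lower in MCF10AT1 if log2(TPM + 1) differed by at least 1, which is 2-fold on the scale of TPM + 1 and understates the change of low genes. By that rule 444 genes were higher (3.53% of those compared) and 770 were lower (6.12%), together 9.65%, and these percentages are the background for every count below. The median difference was -0.074. In bulk RNA, fewer cells expressing a gene and less RNA per cell cannot be told apart. Structural and small non-coding RNA held 57.7% of the TPM in MCF10A and 60.0% in MCF10AT1, ribosomal protein genes held 7.08% and 7.85%, and mitochondrial RNA held 1.01% and 0.858%. The first class was set by gene type and name, and so also took in microRNA host genes such as MIR200CHG. When these classes were left out and the rest was rescaled to 1000000 TPM, 705 genes were higher (5.69%) and 838 lower (6.77%) of 12384, together 12.5%, and the median moved by 0.11 to 0.037. Genes counted as higher thus made up 36.6% of the counted genes on the deposited scale and 45.7% on the rescaled one. All differences below are of deposited TPM unless called rescaled.

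**Figure D1:**
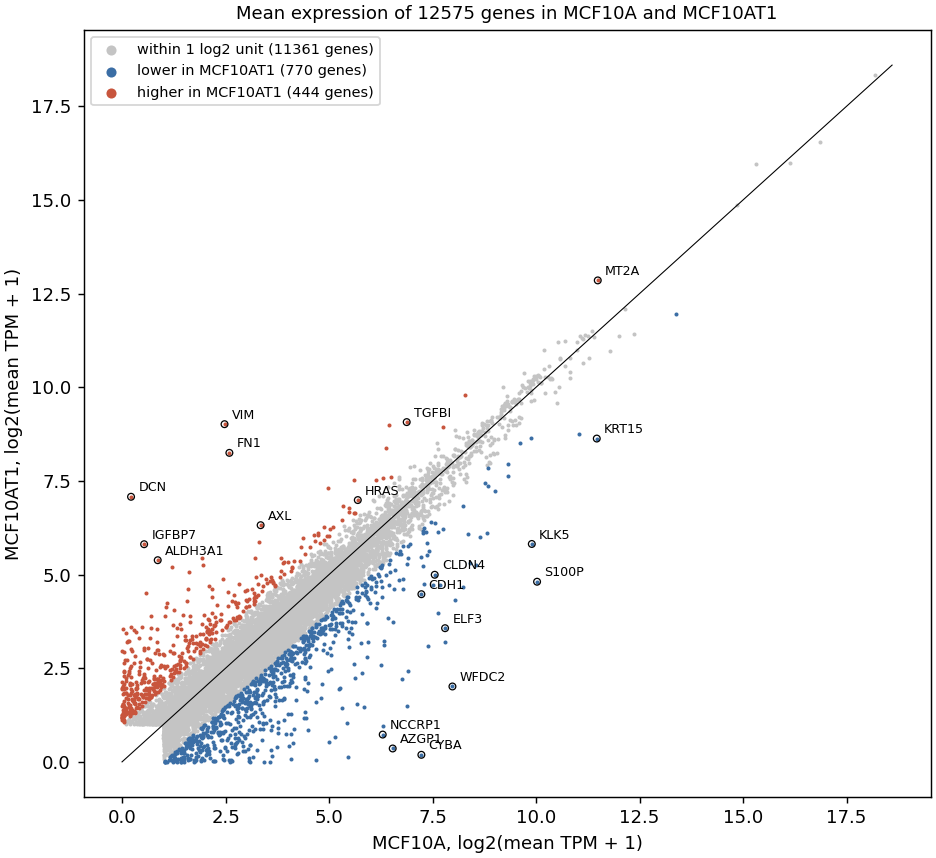
Mean level of each of the 12575 genes in MCF10A (x axis) and MCF10AT1 (y axis), both as log2(mean TPM + 1), with 1 point per gene. The 444 genes counted as higher lie above the diagonal, led by DCN, VIM and FN1, and the 770 counted as lower lie below it, led by CYBA, AZGP1 and WFDC2.

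Most genes lay close together in the 2 lines, and 70.8% differed by less than 0.5. A difference of at least 2 was reached by 83 genes upwards and 161 downwards, and a difference of at least 3 by 23 and 54. Of the 12575 genes, 11364 reached 1 TPM in both lines, 681 in MCF10A alone and 530 in MCF10AT1 alone. Among the 6218 genes with at least 10 TPM in either line, 158 were higher and 408 lower. A move from under 1 TPM in MCF10A to at least 10 TPM in MCF10AT1 was seen for 12 genes, and the reverse for 23. The 12 were DCN, IGFBP7, ALDH3A1, PTPRS, FBN2, MAOA, F2R, INPP5D, CDH2, HEG1, PLAT and FBN1, several of which encode matrix or adhesion proteins. Just inside the rule of size, ATPAF2 had 11.8 TPM in MCF10A and 24.8 in MCF10AT1, and just outside it FADS3 had 13.5 and 28.0.

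HRAS itself, on the minus strand of chromosome 11 at 532242 to 537287 (GRCh38), had 50.8 TPM in MCF10A and 126 in MCF10AT1, a difference of 1.29. The table does not separate the endogenous gene from the introduced one, so this level describes both together. NRAS, a related RAS gene, stayed within the rule of size at 12.6 and 12.3 TPM. Of 29 compared genes for RAS proteins, RAF and ERK kinases and their regulators, 4 were higher and 2 lower, at a median difference of -0.28 against -0.074 for all genes. The higher ones beside HRAS were RASA3, a GTPase-activating protein that switches RAS off, at 0.978 and 6.40 TPM, the RAS effector RIN1 at 9.33 and 22.5 TPM, and the RAL exchange factor RGL1 at 0.143 and 1.68 TPM. The lower ones were RASAL1, another GTPase-activating protein, at 7.71 and 1.68 TPM, and MAPK3, which encodes the kinase ERK1, at 34.9 and 11.3 TPM. MAPK3 lies on chromosome 16, whose genes had a median difference of -0.52, and its own difference of -1.54 was -1.02 after that median was subtracted. The kinase gene BRAF, on chromosome 7, had 7.12 TPM in MCF10A and 4.04 in MCF10AT1, a difference of -0.69 beside a chromosome median of -0.55.

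Genes that brake ERK signalling had a positive median of 0.64 over 16 members, with 3 higher and 1 lower. Rescaled, the median was 0.80, with 6 higher and 0 lower, the added ones being DUSP10, SPRY1 and SPRED3. DUSP6, a phosphatase specific for ERK, was at 13.4 TPM in MCF10A and 42.4 in MCF10AT1, a difference of 1.59. SPRY4, a Sprouty inhibitor of receptor signalling to RAS, was at 1.73 and 6.53 TPM, and DUSP1, which dephosphorylates ERK, JNK and p38, at 18.97 and 52.0 TPM. SPRY2 went the other way without passing the rule, at 12.7 and 7.42 TPM. DUSP4 was counted as lower at 61.7 and 28.8 TPM, a difference of -1.07, but it lies on chromosome 8 and did not pass the rule on the rescaled scale (-0.96), under quantile normalization (-0.91), under median-of-ratios scaling (-0.99) or after the chromosome median was subtracted (-0.53). Among 15 AP-1, PEA3 and EGR transcription factor genes, 2 were higher and 1 lower, at a median difference of -0.18. The PEA3 genes ETV1, at 0.673 and 2.93 TPM, and ETV4, at 6.14 and 13.8 TPM, were the higher ones, and ETV5 had 7.53 and 12.6 TPM, a difference of 0.67. The AP-1 member FOSL1 had 21.0 and 31.2 TPM and FOS had 19.4 and 12.9 TPM, both within the rule, while the stress factor gene ATF3 was lower at 2.45 and 0.560 TPM.

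At the receptor level the EGF receptor family and its ligands had a median of -0.68 over 10 genes, with 0 higher and 3 lower. ERBB3, a receptor that signals as a partner of ERBB2, was at 13.6 TPM in MCF10A and 2.14 in MCF10AT1. The ligand gene EPGN was at 45.7 and 12.4 TPM and the ligand gene EREG at 8.44 and 2.67 TPM. EGFR itself had 49.4 and 26.5 TPM, a difference of -0.87, on chromosome 7 with its median of -0.55. Amphiregulin (AREG), an EGFR ligand, ran against the list with 93.2 and 172 TPM, a difference of 0.88 that reached 1.01 on the rescaled scale.

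Transcription factors that induce the epithelial-mesenchymal transition had 5 of 14 members higher and 0 lower, at a median difference of 0.23. SNAI2 was at 2.92 TPM in MCF10A and 14.1 in MCF10AT1, ZEB2 at 1.34 and 7.70, TWIST2 at 2.22 and 8.76, FOXC2 at 1.65 and 5.59, and ZEB1 at 0.248 and 1.90. SNAI2 and FOXC2 lie on chromosomes 8 and 16, where the chromosome median was below 0. The higher level was not carried into the later lines for ZEB2, which had 0.111 TPM in MCF10DCIS and 0.0264 in MCF10CA1a, or for ZEB1, with 0.170 and 0.121 TPM. Other members had lower means without passing the rule, among them SOX9 at 29.7 and 15.0 TPM and FOXC1 at 5.02 and 2.66 TPM.

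Mesenchymal genes split between a few very large differences and many small ones. Of 17 genes for mesenchymal cytoskeleton, adhesion and receptors, 6 were higher and 1 lower, and the median was -0.035 (rescaled 0.093). The intermediate filament gene VIM led with a difference of 6.54. N-cadherin (CDH2), the cadherin of mesenchymal and neural cells, was at 0.399 TPM in MCF10A and 11.2 in MCF10AT1, although chromosome 18 had a median of -0.32. The receptor kinase gene AXL was at 9.18 and 78.8 TPM, the contractile gene TAGLN at 2.10 and 12.3 TPM, NT5E (CD73) at 39.0 and 87.4 TPM, and tropomyosin TPM2 at 88.6 and 193 TPM. TPM2 lies on chromosome 9, whose median was 0.41, and its difference of 1.11 was 0.70, within the rule, after that was subtracted. Against these, FAP, a protease of activated fibroblasts, had 15.8 and 7.85 TPM, and S100A4, a calcium-binding protein often used as a mesenchymal marker, had 72.6 and 37.9 TPM. The adhesion gene L1CAM was lower at 10.8 and 4.01 TPM. Of 12 fibroblast markers 3 were compared, COL1A1 and POSTN counted as higher and FAP within the rule. The summed level of the 12 was 16.8 TPM in MCF10A and 14.8 in MCF10AT1. The defining markers COL1A2 (0.0404 and 0.0408 TPM), COL3A1 (0.0070 and 0.0491 TPM) and LUM (0 and 0.0579 TPM) were at or near 0. Of 12 leukocyte markers 5 were compared, with 1 lower, CORO1A at 37.0 and 2.82 TPM on chromosome 16, and the summed level of the 12 was 72.2 and 40.7 TPM, while PTPRC stayed under 1 TPM in both lines. Of 10 endothelial and 7 adipocyte markers 1 each was compared and lower, PECAM1 at 3.79 and 0.866 TPM and LPL at 3.29 and 0.227 TPM. All 10 breast epithelial markers were compared, with 1 higher and 6 lower. The part of other cell types in the results was not tested.

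Extracellular matrix genes formed the largest block of higher genes among the lists. Of 25 genes for proteoglycans, glycoproteins and matricellular proteins, 12 were higher and 0 lower, at a median difference of 0.88 (rescaled 1.33). Fibrillin genes, whose products form microfibrils, were among them, with FBN1 at 0.784 TPM in MCF10A and 10.8 in MCF10AT1, and FBN2 at 0.0156 and 10.7 TPM. SPOCK1, a secreted proteoglycan, was at 3.29 and 24.9 TPM, the large proteoglycan versican (VCAN) at 0.159 and 7.01 TPM. Of the 25, 6 lay below 0 within the rule, among them SRPX2 at 20.4 and 9.89 TPM and thrombospondin THBS1 at 473 and 249 TPM. Collagen chain genes had 8 of 15 members higher and 0 lower, at a median difference of 1.02. COL7A1, the anchoring fibril collagen, was at 1.39 and 15.8 TPM, COL12A1 at 1.11 and 17.9 TPM, COL6A1 at 0.00484 and 2.90 TPM, COL18A1 at 0.216 and 2.15 TPM, COL1A1 at 0.674 and 3.22 TPM, and COL8A1 at 5.43 and 13.2 TPM. Collagen genes were thus higher as a group, and those named stayed at modest levels, the highest being COL12A1. The summed level of the 28 listed collagen genes was 97.5 TPM in MCF10A and 182 in MCF10AT1. With the filter of 5 TPM, 4 collagen genes were higher. Of 16 collagen folding and crosslinking genes 2 were higher, the prolyl isomerase gene FKBP10 at 0.122 and 8.37 TPM and the prolyl hydroxylase gene P3H1 at 6.03 and 18.0 TPM. The crosslinking enzyme LOXL2 was lower at 87.8 and 32.6 TPM, but it lies on chromosome 8 and was within the rule at -0.85 after the chromosome median was subtracted, which left 0 lower.

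Genes for matrix turnover moved both ways. Of 13 metalloproteinase, ADAMTS and TIMP genes, 3 were higher and 3 lower. After chromosome medians were subtracted, and also with the filter of 5 TPM, 3 were higher and 1, MMP7, lower. TIMP1, a secreted inhibitor of metalloproteinases, was at 86.3 TPM in MCF10A and 504 in MCF10AT1, and the gelatinase gene MMP2 at 5.76 and 17.6 TPM. MMP7, a metalloproteinase of glandular epithelium, was lower at 11.1 and 0.796 TPM. In the plasminogen activation system and its serpins, 6 of 13 were higher and 3 lower. The higher genes included both plasminogen activators, PLAU at 6.19 and 13.6 TPM (1.02, and 0.99 after its chromosome median was subtracted) and PLAT at 0.619 and 10.9 TPM, and the inhibitor gene SERPINE2 at 8.99 and 57.4 TPM. SERPINB7 was lower at 9.03 and 1.68 TPM, SERPINA3 at 60.0 and 19.2 TPM, and SERPINB1 was lower by a difference of -1.28. Integrin genes had 1 of 14 higher (3 rescaled), the fibronectin receptor chain ITGA5 at 31.4 and 73.9 TPM, and 3 lower, among them ITGB6, an epithelial chain that binds latent TGF-beta, at 69.8 and 16.2 TPM and ITGB8 at 48.8 and 12.2 TPM. Laminin and nidogen genes had 1 of 10 higher, LAMA4 at 3.28 and 12.7 TPM, and 0 lower.

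**Figure D2:**
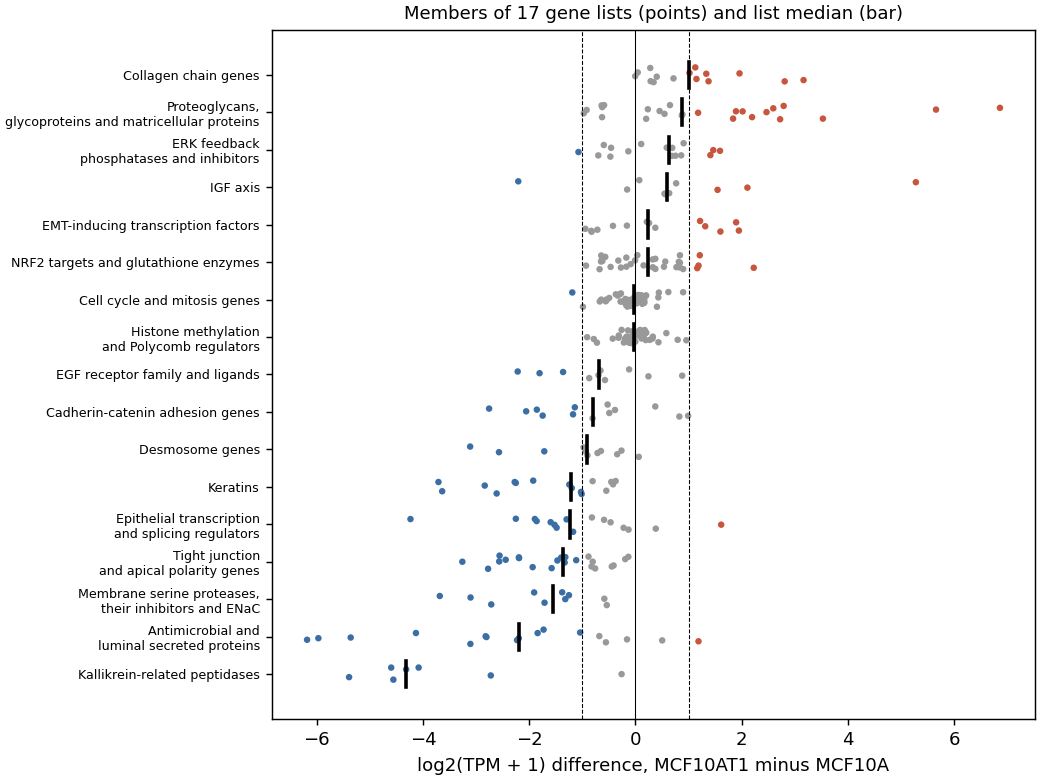
Differences in log2(TPM + 1), MCF10AT1 minus MCF10A (x axis), of the compared members of 17 gene lists, with 1 point per gene and a bar at each list's median. Collagen chains and proteoglycans have medians of 1.02 and 0.88, junction, keratin and protease lists have medians below 0, and the 45 cell cycle genes lie close to 0 at a median difference of -0.034.

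All 3 junction lists had members counted as lower. Of 22 tight junction and apical polarity genes, 14 were lower and 0 higher, at a median difference of -1.37. Transmembrane proteins of the junction were among them, with claudin CLDN4 at 187 TPM in MCF10A and 30.9 in MCF10AT1, CLDN7 at 181 and 25.6 TPM, CLDN8 at 6.02 and 0.187 TPM, and occludin (OCLN) at 9.06 and 0.850 TPM. The scaffold gene TJP3 was at 11.01 and 0.255 TPM, and the polarity gene CRB3, which positions the apical domain, at 15.6 and 3.33 TPM. Cadherin-catenin genes had 6 of 13 lower and 0 higher, at a median difference of -0.81. E-cadherin (CDH1) and its neighbour P-cadherin (CDH3) had differences of -2.75 and -1.86, and other lower members were NECTIN4 at 5.96 and 1.07 TPM, EPCAM at 86.1 and 37.6 TPM and the catenin JUP at 120 and 53.6 TPM. CDH1 lies on chromosome 16 from 68737225 to 68835548 and CDH3 from 68636189 to 68722616, both on the plus strand (GRCh38). After the chromosome 16 median was subtracted they were still past the rule, at -2.23 and -1.33. NECTIN1 had a higher mean within the rule at 14.1 and 25.8 TPM. NECTIN3, at 2.39 and 5.74 TPM, lay just within it at 0.99 and was counted as higher rescaled (1.28), and the list had 1 higher member also under quantile normalization, median-of-ratios scaling and a pseudocount of 0.1. Desmosome genes had 3 of 11 lower and 0 higher, at a median difference of -0.90. The 3 were the desmosomal cadherins DSC2 at 59.1 and 5.96 TPM, DSG3 at 84.5 and 13.4 TPM and DSG2 at 85.9 and 25.5 TPM, all on chromosome 18, where they were at -2.79, -2.25 and -1.40 after the chromosome median was subtracted. Over all genes so adjusted, 11 tight junction genes, 6 cadherin-catenin genes and 3 desmosome genes stayed lower, and NECTIN3 joined the higher side at 1.01.

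The promoters of CRB3, OCLN and of ELF3, an epithelial transcription factor gene that was lower too, are shown because they hold the E-box CAGGTG, the sequence that SNAI and ZEB proteins recognise. Each is 300 bases from 250 before to 50 after the start of the gene in RefSeq on GRCh38.p14, written 5′ to 3′ on the plus strand, on which all 3 genes lie, and the capitals mark CAGGTG or its reverse complement CACCTG. They span chr19:6464021-6464320, chr5:69492297-69492596 and chr1:202010337-202010636. GENCODE 29 starts these genes further upstream, at 6463777, 69492292 and 202007945. Each window thus lies inside the gene as GENCODE 29 places it.
CRB3: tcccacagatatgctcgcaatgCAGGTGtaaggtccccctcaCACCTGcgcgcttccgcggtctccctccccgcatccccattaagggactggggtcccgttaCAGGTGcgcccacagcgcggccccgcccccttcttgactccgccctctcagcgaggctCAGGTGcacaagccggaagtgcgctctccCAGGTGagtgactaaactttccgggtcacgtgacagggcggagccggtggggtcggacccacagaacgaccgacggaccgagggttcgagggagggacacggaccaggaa
OCLN: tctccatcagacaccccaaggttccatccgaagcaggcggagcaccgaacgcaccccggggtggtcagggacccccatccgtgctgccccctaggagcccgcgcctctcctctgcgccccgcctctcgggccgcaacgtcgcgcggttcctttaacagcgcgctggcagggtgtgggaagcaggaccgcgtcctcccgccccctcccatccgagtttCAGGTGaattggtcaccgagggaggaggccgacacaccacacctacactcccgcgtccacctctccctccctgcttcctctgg
ELF3: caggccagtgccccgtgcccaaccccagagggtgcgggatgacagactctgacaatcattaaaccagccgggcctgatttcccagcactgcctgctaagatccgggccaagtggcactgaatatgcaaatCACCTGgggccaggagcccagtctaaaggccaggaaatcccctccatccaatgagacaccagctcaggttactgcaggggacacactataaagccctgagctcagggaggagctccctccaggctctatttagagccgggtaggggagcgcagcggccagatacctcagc
The CRB3 promoter holds 5 matches and the other 2 hold 1 each. Searched on both strands, the motif was in 5625 of 27305 promoters of the same length (20.6%), and in 1663 of 9160 (18.2%) protein-coding genes compared here that had a promoter in the table. A match describes the letters of the window and shows no binding, and these genes were picked because they have one. The motif was also present in promoters of genes that were higher, among them ZEB1, AXL, WNT5A, C1R, IGFBP2, EPHB2, HIF1A and RGL1 (1 match each).

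Genes that maintain the epithelial state were lower as well. Of 16 epithelial transcription and splicing regulators, 9 were lower and 1 higher, at a median difference of -1.24. The ETS factor gene ELF3 was at 222 TPM in MCF10A and 10.9 in MCF10AT1, and its relative EHF at 14.1 and 3.06 TPM. The Grainyhead factor gene GRHL1 was at 6.70 and 0.617 TPM, and GRHL2, a direct activator of junction genes, at 12.3 and 3.64 TPM. ESRP1, which directs epithelial splicing, was at 54.7 and 14.4 TPM, and OVOL2, a repressor of ZEB genes, at 7.47 and 1.80 TPM. GRHL2 and ESRP1 lie on chromosome 8, and after subtraction of its median of -0.55 they were at -0.98, within the rule, and at -1.31. The higher gene was TP63, which specifies basal epithelium, at 0.901 and 4.81 TPM. The host gene of miR-200c and miR-141, microRNAs that target ZEB1 and ZEB2, is listed as MIR200CHG and had 2.52 and 0.606 TPM. It has no rescaled value, as its name placed it in a class left out.

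**Figure D3:**
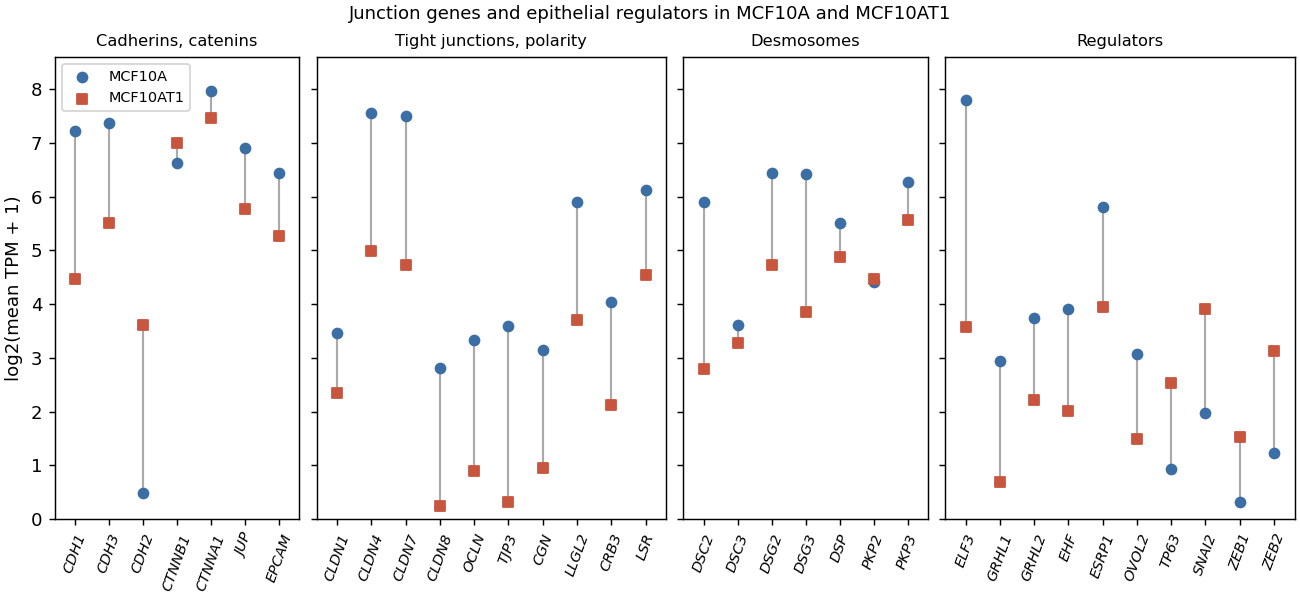
Mean level, as log2(mean TPM + 1) (y axis), of junction genes and epithelial regulators in MCF10A (circles) and MCF10AT1 (squares), with 1 pair per gene. MCF10AT1 lies under MCF10A for CDH1, CLDN4, OCLN, DSC2 and ELF3, and over it for CDH2, TP63, SNAI2, ZEB1 and ZEB2.

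Membrane serine proteases, their inhibitors and the epithelial sodium channel had 8 of 10 genes lower and 0 higher, at a median difference of -1.55. Matriptase (ST14), a protease of the epithelial surface, was at 110 TPM in MCF10A and 28.5 in MCF10AT1, and its inhibitors SPINT1 at 81.4 and 30.7 TPM and SPINT2 at 433 and 173 TPM, so enzyme and inhibitors were lower together. The prostasin gene PRSS8 and the channel subunits SCNN1B (79.1 and 8.31 TPM) and SCNN1G (36.5 and 14.8 TPM) lie on chromosome 16, and after its median was subtracted PRSS8 was at -3.16, SCNN1B at -2.58 and SCNN1G at -0.73, within the rule, which left 7 genes of the list lower. The secreted kallikrein peptidases, which cleave desmosomal and cornified layer proteins in skin, stood lower still. Of 7 compared, 6 were lower, at a median difference of -4.32. KLK6 was at 108 and 3.62 TPM, KLK10 at 168 and 7.49 TPM, KLK9 at 15.0 and 1.43 TPM, and KLK5, KLK7 and KLK8 had differences of -4.08, -4.60 and -5.39. These 6 genes are neighbours within 76.9 kb of chromosome 19, from 50943303 to 51020175 (GRCh38), while the genes of chromosome 19 as a whole had a median of -0.017. Neighbouring members of 1 cluster are not independent observations.

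Keratins, the intermediate filaments of epithelia, had 11 of 16 genes lower and 0 higher, at a median difference of -1.22. KRT15, a keratin of basal cells, was at 2830.4 TPM in MCF10A and 395 in MCF10AT1, KRT81 at 2100.1 and 434 TPM, and the stress keratin KRT16 at 261 and 19.04 TPM. The simple keratins KRT8 and KRT19 were at 942 and 397 TPM and at 5.76 and 0.419 TPM. KRT5, the main basal keratin partner of KRT14, stayed within the rule with a difference of -0.37, and KRT14 was at -1.20. Over 16 basal and myoepithelial genes 2 were higher, TP63 and the myosin kinase gene MYLK at 0.166 and 2.89 TPM, and 2 were lower, KRT14 and KRT17. Of 10 luminal genes 7 were lower and 0 higher, at a median difference of -1.30, among them the mucin gene MUC1 at 123 and 55.1 TPM, the surface protein MSLN at 92.0 and 12.3 TPM, and the luminal factor gene GATA3 at 7.34 and 2.79 TPM. The luminal list thus had most of its members lower. Most basal genes did not pass the rule, but 10 of the 16 lay below 0. Their median difference was -0.48 (rescaled -0.35), against -0.074 for all genes. With the filter of 5 TPM, 0 basal genes were higher. Rescaled, the basal counts were 4 higher and 1 lower, KRT17 no longer passing at -0.89. Among 12 cornified envelope genes 4 were lower and 0 higher, with the crosslinking enzyme TGM1 at 8.63 and 1.31 TPM.

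Antimicrobial and luminal secreted proteins had 12 of 17 genes lower and 1 higher, at a median difference of -2.20. The protease inhibitors SLPI and PI3 were at 338 TPM in MCF10A and 38.4 in MCF10AT1 and at 50.2 and 1.92 TPM, the siderophore-binding protein LCN2 at 16.1 and 1.42 TPM, and RARRES1, WFDC2 and AZGP1 were each under 5 TPM in MCF10AT1. RNASE7, an antimicrobial ribonuclease, was the higher one at 0.0407 and 1.37 TPM. S100P, a calcium-binding protein, was at 1041.0 and 27.0 TPM, the furthest from 0 of 22 S100 and annexin genes, of which 4 were lower and 1 higher. Within the NADPH oxidase genes CYBA, the p22phox subunit shared by several oxidases, was at 149 and 0.140 TPM, and NOXO1, an organising subunit, at 9.50 and 0.491 TPM. Both lie on chromosome 16, and CYBA had a difference of -6.52 after its chromosome median was subtracted.

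Cytokine genes were divided, with 3 of 14 higher and 5 lower. The macrophage growth factor gene CSF1 was at 0.329 TPM in MCF10A and 8.89 in MCF10AT1, and interleukin-1 genes IL1A and IL1B at 0.813 and 3.12 TPM and at 0.382 and 2.51 TPM, while IL1RN, which encodes the interleukin-1 receptor antagonist, was lower at 6.33 and 0.662 TPM. CXCL16 was lower at 11.9 and 1.79 TPM and LIF at 16.7 and 5.80 TPM. Complement genes were divided too. C3, the central component, was lower at 202 and 25.6 TPM, whereas the protease gene C1R was higher at 0.149 and 4.68 TPM and CLU, a regulator, at 0.357 and 5.37 TPM. Among 14 NF-kB subunits and feedback regulators 0 were higher and 2 were lower, BIRC3 at 16.2 and 5.43 TPM and TNFAIP2 at 57.0 and 21.1 TPM. Interferon-stimulated genes had 4 of 23 higher and 3 lower, at a median difference of 0.077, and MHC class I genes had 0 of 21 higher and 1 lower, at a median difference of -0.44. The 1 lower was TAPBPL, a peptide editor, at 5.71 and 1.22 TPM.

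Secreted regulators of growth factor signalling contained several of the largest differences. In the TGF-beta and BMP pathway 4 of 31 genes were higher and 5 lower, but 8 were higher and 5 lower rescaled, and 7 higher and 3 lower after chromosome medians were subtracted. The higher ones included 3 latent TGF-beta binding proteins, which anchor the latent cytokine in the matrix, with LTBP1 at 1.32 TPM in MCF10A and 35.9 in MCF10AT1, LTBP2 at 6.82 and 22.5 TPM and LTBP4 at 8.76 and 21.1 TPM, and the co-receptor TGFBR3 at 0.165 and 2.60 TPM. Their relative LTBP3 went the other way within the rule, at a difference of -0.77. TGFB1 itself had 10.5 and 21.9 TPM, a difference of 0.99 that passed the rule rescaled (1.16). Ligand genes were among the lower ones, with the activin chain INHBB at 5.25 and 0.0118 TPM, TGFB2 at 6.99 and 2.11 TPM, GDF15 at 59.0 and 20.3 TPM and INHBA at 14.7 and 5.79 TPM, the last on chromosome 7 and within the rule at -0.66 after the median there was subtracted. TGFBI, a matrix protein named for its induction by TGF-beta, was higher at 116 and 536 TPM. In the IGF axis, binding proteins went both ways, with IGFBP2 at 0.355 and 4.83 TPM, IGFBP4 at 1.03 and 4.94 TPM and IGFBP3 at 59.3 and 12.1 TPM. IGFBP3 lies on chromosome 7 and was at -1.66 after its median was subtracted.

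For WNT signalling 3 of 19 genes were higher and 0 lower, the ligand WNT5A at 0.245 TPM in MCF10A and 6.11 in MCF10AT1, the secreted DKK3 at 0.0632 and 2.28 TPM, and the receptor FZD2 at 1.01 and 3.06 TPM. In the Notch pathway NOTCH3 was higher at 2.10 and 5.97 TPM, and the target genes HES1 and HES4 were lower at 20.0 and 8.54 TPM and at 21.2 and 8.94 TPM. FGF, PDGF and VEGF genes had 4 of 12 lower and 0 higher, among them VEGFA at 75.7 and 27.4 TPM, the receptor NRP2 at 43.7 and 18.0 TPM, and the ligand PDGFB at 7.50 and 2.00 TPM. Their list also held MET, the hepatocyte growth factor receptor, at 49.4 and 19.5 TPM on chromosome 7, where its difference of -1.30 was -0.75, within the rule, after the chromosome median was subtracted. Eph receptors showed EPHB2 higher at 0.930 and 4.93 TPM and EPHA1 lower at 15.8 and 3.54 TPM. Receptor tyrosine phosphatases had 2 of 11 higher, PTPRS and PTPRG (3.24 and 13.2 TPM), and 2 lower, PTPRK (44.6 and 17.1 TPM) and PTPRH (3.11 and 0.135 TPM). Among 20 YAP/TAZ effectors and targets, 2 were higher and 2 lower, but 3 and 1 rescaled. Quantile normalization and median-of-ratios scaling also left 1 lower. CCN2 was higher at 1.53 and 9.22 TPM and F3 lower at 176 and 84.2 TPM, a difference of -1.06.

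Genes of oxidant and aldehyde metabolism contained some higher members. Of 32 NRF2 targets and glutathione enzymes 4 were higher (7 rescaled) and 0 lower, with the aldo-keto reductases AKR1C1 at 8.29 TPM in MCF10A and 42.4 in MCF10AT1 and AKR1C3 at 33.4 and 76.1 TPM. The ferritin genes, which encode the 2 chains of the iron store, differed in sign, with the light chain FTL at 214 and 489 TPM and the heavy chain FTH1 at 5236.0 and 2746.3 TPM, the latter a difference of -0.93. Aldehyde dehydrogenase and retinoid genes had 5 of 22 higher and 5 lower. ALDH3A1 and its neighbour ALDH3A2 (39.6 and 113 TPM) were among the higher ones and lie in the chromosome 17 segment described below, whereas ALDH1A3, whose product makes retinoic acid, was lower at 69.1 and 24.7 TPM. CYP1B1, a target of the aryl hydrocarbon receptor, was higher at 2.00 and 23.4 TPM. HIF1A, the hypoxia factor gene, was higher at 28.2 and 76.8 TPM, together with the glucose transporter SLC2A3 at 0.0405 and 3.87 TPM and the carbonic anhydrase CA12 at 0.451 and 7.22 TPM. Only these 3 of 31 glycolysis and hypoxia response genes were counted as higher, and 1, ALDOC, as lower at 22.9 and 10.8 TPM, so most enzymes of glycolysis lay within the rule. The difference of ALDOC was -1.02, and rescaled the list had 4 higher and 0 lower.

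Core cell functions differed little on this scale. Of 45 cell cycle and mitosis genes 0 were higher and 1 was lower, E2F2 at 6.17 TPM in MCF10A and 2.14 in MCF10AT1, at a median difference of -0.034 (rescaled 0.094). Of 47 histone methylation and Polycomb regulators none passed the rule on deposited TPM, at a median difference of -0.030 (rescaled 0.086, with 1 higher), and the largest differences were those of JARID2 at 2.69 and 6.16 TPM and KMT2C, on chromosome 7, at 13.2 and 6.58 TPM. Sterol and fatty acid synthesis genes had 0 of 27 past the rule in either direction, at a median difference of 0.0059. Of 25 p53 family, CDK inhibitor and p53 target genes 1 was higher, which was TP63. Among 24 actin cytoskeleton and SRF target genes 1 was higher, TLN1 at 48.4 and 98.4 TPM, a difference of 1.01 that was 0.60, within the rule, once the median of its chromosome 9 was subtracted. HOX genes had 1 of 14 lower, HOXC13 at 18.7 and 6.87 TPM. Their median difference of -0.037 became 0.44 after chromosome medians were subtracted, with 0 higher and 1 lower in that setting. Of 22 long non-coding RNAs, H19, an imprinted transcript, was higher at 2.05 and 32.7 TPM, and UCA1 was lower at 15.3 and 0.333 TPM. Without replicate error, none of these medians near 0 shows that the genes were equal in the 2 lines.

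Whole chromosomes were displaced between the lines. Over 11195 protein-coding genes with a position, the median was -0.072 on deposited TPM and 0.046 rescaled. The genes of chromosome 7 (521 genes), chromosome 8 (389) and chromosome 16 (557) had medians of -0.55, -0.55 and -0.52, rescaled -0.45, -0.46 and -0.43. Chromosome 18 followed with -0.32 over 160 genes and chromosome 20 with -0.23 over 313. Chromosome 9 lay in the other direction with 0.41 over 465 genes, rescaled 0.57. On chromosome 16, 80 genes were lower and 9 higher, and on chromosome 9, 11 were lower and 35 higher. In sliding windows of 25 neighbouring genes, the highest median belonged to a segment of chromosome 17 from 17303335 to 19748943 (GRCh38), from NT5M to ALDH3A1, with 1.17 rescaled and 25 of 25 genes above 0. A window of chromosome 8 from 74234700 to 90791632 had the lowest, -0.89 rescaled. Cut into successive blocks of 25 genes, chromosomes 7, 8, 16 and 18 had a rescaled median below 0 in every block (20, 15, 22 and 6 blocks), and chromosome 9 in none of 18, so the displacement ran along the whole of each. Copy number was not measured here, so a difference in gene dose cannot be told apart from one in transcription. Subtracting from each gene the median of its chromosome left 455 genes higher and 595 lower, compared with 444 and 770 before.

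**Figure D4:**
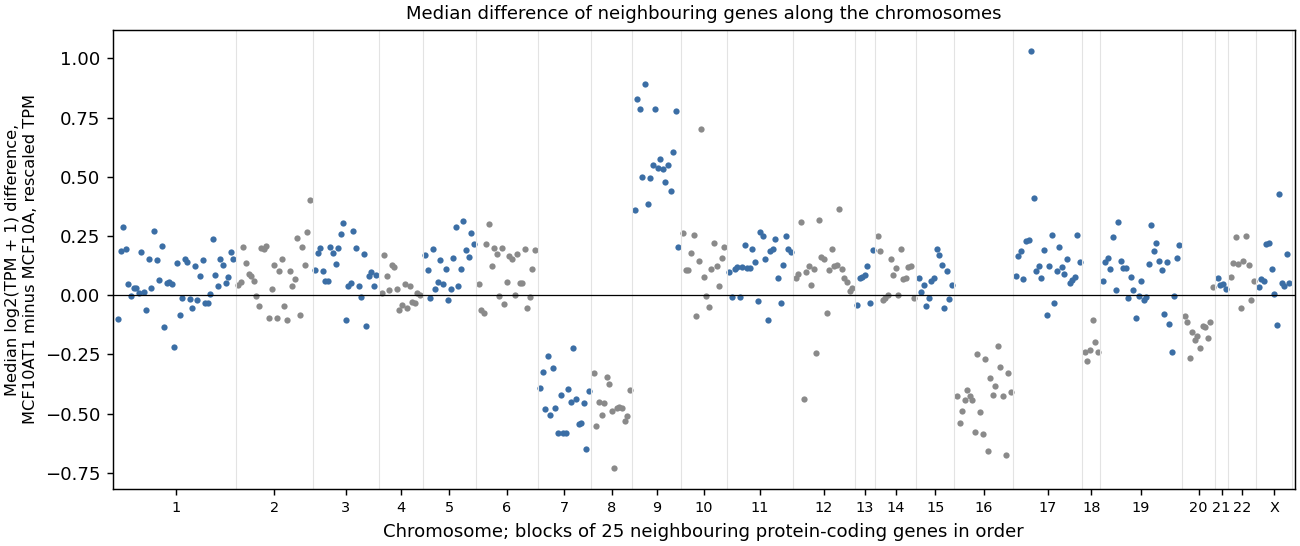
Median difference in log2(TPM + 1), MCF10AT1 minus MCF10A on rescaled TPM (y axis), of successive blocks of 25 neighbouring protein-coding genes in chromosome order (x axis). All blocks of chromosomes 7, 8, 16 and 18 lie below 0 and all 18 of chromosome 9 above, and the highest block, at 1.03, is on chromosome 17.

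Levels in the 2 later lines place these genes within the series. The comparisons share MCF10A, so only levels are given. FN1 had 303 TPM in MCF10AT1 and 2.01 and 3.89 TPM in MCF10DCIS and MCF10CA1a, and DCN had 134, 0.142 and 0.126 TPM. MCF10AT1 was also the highest line for LTBP1, with 35.9 TPM in MCF10AT1, 1.41 in MCF10DCIS and 1.74 in MCF10CA1a, for FBN1 with 10.8, 0.170 and 0.217 TPM, for IGFBP7 with 55.1, 1.01 and 0.0317 TPM, and for CYP1B1 with 23.4, 1.60 and 1.99 TPM. The MCF10A means of these 6 genes were 0.163 to 5.03 TPM, so MCF10AT1 stood alone among the 4 lines. Other genes kept a higher level, such as FBN2 with 10.7, 12.2 and 5.26 TPM and PTPRS with 21.6, 19.9 and 25.2 TPM in the same order, and PLAT went on to 113 and 294 TPM. Of the lower genes, CYBA (0.140, 0.258 and 0.172 TPM) and KLK8 (1.82, 0.396 and 0.439 TPM) were low in all 3 derived lines, whereas S100P had 27.0 TPM in MCF10AT1, 297 in MCF10DCIS and 1034.1 in MCF10CA1a, and PI3 had 1.92, 55.0 and 269 TPM.

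**Figure D5:**
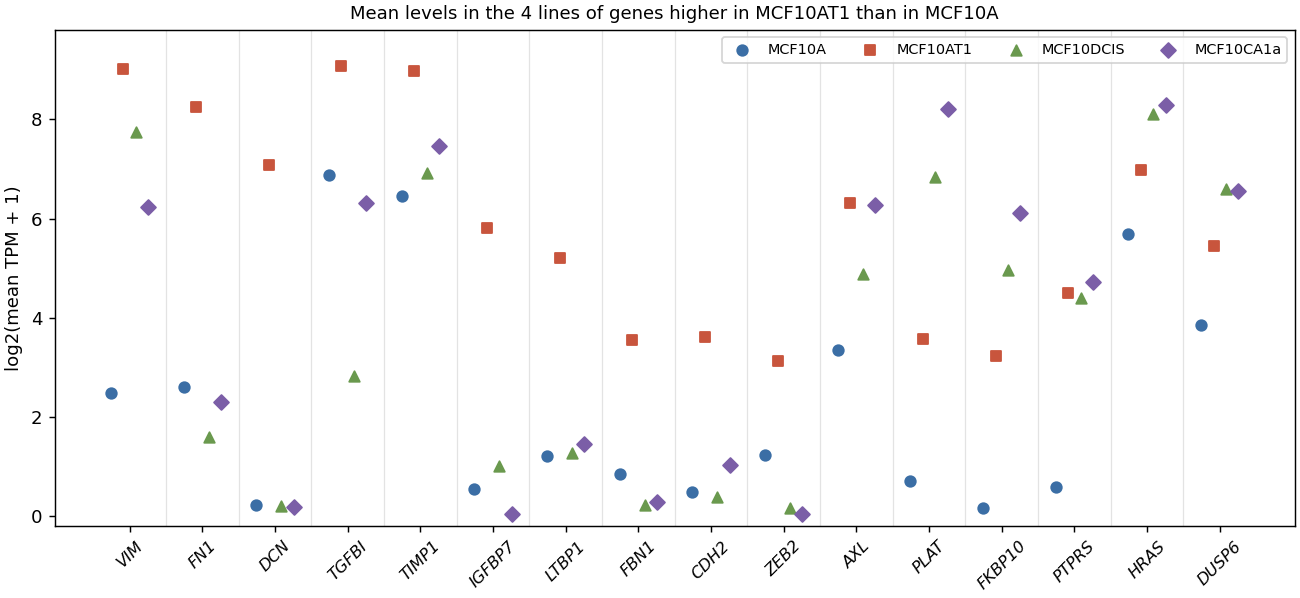
Mean level, as log2(mean TPM + 1) (y axis), of genes counted as higher in MCF10AT1 than in MCF10A, with 1 symbol per line. FN1, DCN, LTBP1, FBN1 and IGFBP7 are highest in MCF10AT1, while PTPRS lies close to its MCF10AT1 level in MCF10DCIS and MCF10CA1a and PLAT is highest in MCF10CA1a.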

How the data were processed

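RNA from 12 libraries of 4 lines, 3 per line, was sequenced as stranded total RNA. STAR, edgeR and build hg38 are named in the submitters' processing notes. The sources used here do not give versions, quantifier, annotation or strand setting. What the authors deposited is 1 table of TPM with a mean per line, and each column sums to 1000000. No count, per-library value or depth was analysed here, so there was no count model, interval, floor or p-value, and a rule of size replaced the test. TPM were compared as log2(TPM + 1) for symbols with at least 1 TPM in MCF10A or MCF10AT1. Calculations used Python 3.11.15, pandas 2.3.3 and numpy 2.4.6, drawn with matplotlib 3.10.9, and were tested on simulated data. Samples were grouped by the line in their title.

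The members and the 56 gene lists (1304 entries, 1251 distinct genes, 903 of them compared) were chosen with earlier results of these data known. Genes named were members of the RAS, ERK feedback, AP-1, EGF receptor, transition factor and cadherin lists, up to 6 higher and 6 lower members of any other list, members completing a family, the 20 largest differences either way with at least 10 TPM, and genes nearest the rule of size. Positions are from GENCODE 29 on GRCh38, the build that hg38 denotes, for 12514 of the 12575 genes, by RefSeq symbol where absent. Promoters are from RefSeq. Whether the counting used strand is unknown, so reads of overlapping antisense genes and of near-identical family members, such as keratins and metallothioneins, may be shared.

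Alternatives were rescaling without structural, mitochondrial and ribosomal protein RNA, quantile normalization, median-of-ratios scaling, a pseudocount of 0.1, no filter and a filter of 5 TPM. Subtracting each chromosome's median was chosen after seeing the data.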

Additional observations from a re-analysis of the deposited data

How the results depend on the processing

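No paired analysis was possible because the columns are line means without replicate numbers, and leaving out each library could not be run for the same reason. Against 444 genes higher, rescaled TPM gave 705 and a filter of 5 TPM gave 243, the latter with fewer genes tested. Against 770 lower, a pseudocount of 0.1 gave 1158. The other alternatives gave 444 to 665 higher and 577 to 838 lower, within 1.5 times. The median of -0.074 became 0.037 rescaled, 0.042 under quantile normalization, -6.55e-05 under median-of-ratios scaling, -0.086 with the pseudocount of 0.1, -0.0062 without a filter, -0.080 with the filter of 5 TPM and 0.0020 after chromosome medians were subtracted. The cause was not tested. For 73 single genes tracked, which were not all of those named, 502 values kept their direction and side of the rule. A further 5 fell short of it (DUSP4 in 4, GRHL2 in 1), 1 passed it (AREG rescaled), and no gene reversed. The 502 include 73 values without a filter and 70 with the filter of 5 TPM. Those could not change, as a filter alters no gene's value. Beside the tracked genes, those that fell within the rule after chromosome medians were subtracted included TPM2, SCNN1G, LOXL2, PLAU, INHBA, MET and TLN1. NECTIN3 and TGFB1 were among those that passed it in that setting. Further listed genes changed side there too. For example, CLDN12, MARVELD3 and PARD6A fell within the rule, SMAD6, SMAD7 and NQO1 became higher, and TNC and ANXA1 became lower. Of the counts within lists, 624 stayed within 1.5 times and 90 moved. Without a filter no count could change, because 2 values under 1 TPM cannot differ by the rule. The 624 include 102 such counts. Depth limits cannot be given from TPM, and means hide the spread between libraries.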

Other observations

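Some genes outside the lists, chosen after their values were seen, also differed. Metallothioneins, cysteine-rich metal-binding proteins, did not share 1 direction. MT2A had 2877.2 TPM in MCF10A and 7395.3 in MCF10AT1, MT1E had 309 and 894 TPM, and MT1X had 47.5 and 184 TPM, whereas MT1F was lower at 11.2 and 4.08 TPM. These 4 genes lie on chromosome 16, whose median was -0.52, so 3 of them ran against their chromosome. The difference of MT1F was -1.27, which passed the rule only with that chromosome median included. MT2A had 3394.8 TPM in MCF10DCIS and 973 in MCF10CA1a.

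NNMT, which methylates nicotinamide, had 82.2 TPM in MCF10A and 330 in MCF10AT1, and GLUL, the glutamine synthetase, had 30.2 and 158 TPM. The epithelial genes GPRC5A (326 and 66.8 TPM), RAB25, a GTPase of apical recycling (109 and 23.5 TPM), and FXYD3, a sodium pump regulator (517 and 150 TPM), were lower. The carbonic anhydrase gene CA2 was lower at 120 and 4.36 TPM, and MAOA, which oxidises amines, was higher at 0.161 and 11.1 TPM, with 0.0683 TPM in MCF10DCIS and 0.156 in MCF10CA1a.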
